A study of Homo sapiens with 6 samples.

Results

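Organic ion and drug uptake carriers are membrane proteins of the solute carrier (SLC) families that move drugs, bile salts, hormones, lactate, carnitine, urate and nucleosides across the cell surface. They were taken here as every gene whose name in the scanner files begins with SLCO, SLC22A, SLC47A, SLC16A, SLC28A or SLC29A, and 51 of the 17476 named genes on the array had such a name, read by 67 of 41000 probes. The families held 11 SLCO, 19 SLC22A, 14 SLC16A, 3 SLC28A and 4 SLC29A genes, and no gene carried an SLC47A name. The SLC22A genes include SLC22A18AS, an antisense gene taken in by its name alone, which stays among the 51 throughout. The carriers were followed in HepG2, an established human hepatoma cell line, on 6 one-colour Agilent expression arrays. One array held RNA of control cells, and the other 5 held RNA of cells given 100 µg/ml of an extract of Scutellaria baicalensis, a medicinal plant of the mint family, and collected after 1, 3, 6, 12 or 24 h. The labels give neither a time nor a vehicle for the control. Each group held a single array, so differences at one time carry neither a replicate spread nor a p-value, and the 5 comparisons share the same control array. RNA came from all cells of a dish together, so fewer expressing cells and less RNA per cell cannot be told apart.

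In the liver, uptake carriers of the basolateral membrane bring drugs and endogenous compounds into hepatocytes, where they meet the enzymes of drug metabolism before canalicular pumps export the products. The SLCO genes encode the organic anion transporting polypeptides (OATPs), and SLC22A genes encode organic cation, organic anion, urate and carnitine transporters. SLC16A genes encode the monocarboxylate transporter (MCT) family, SLC28A and SLC29A genes the concentrative and equilibrative nucleoside transporters, and SLC47A genes the extruders of organic cations known as MATE proteins.

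Levels are log2 of the scanner software's processed signal relative to the 75th percentile of the same array, so a level of 0 is the signal that 75% of probes did not exceed. Array brightness differed: the 75th percentile was 140 and 377 units at 6 and 12 h against 698 to 1710 units on the other arrays, and 49.5% of probes were well above background at 6 h against 64.4% to 73.3% elsewhere. Hepatocyte markers were well above background on every array for 9 of 9 genes, and their summed signal ranged from 291 to 1818 times the 75th percentile, with several probes saturated. Kidney tubule markers summed to between 0.337 and 0.552 times that percentile, and LRP2, a defining gene of the proximal tubule, was not well above background on any array. Intestinal markers summed to between 23.5 and 31.2 times, with VIL1, villin, at levels of 4.53 to 4.92 giving nearly all of the sum and MUC2 also above background on all 6 arrays. SI, FABP2 and CDX2, the other intestinal genes of the list, were not well above background on any array. The blood, fibroblast and endothelial lists summed to at most 3.78, 0.513 and 0.529 times.

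Of the 51 carriers, 20 were well above background on all 6 arrays, 15 on 3 to 5 arrays, 7 on 1 or 2 and 9 on none. The SLC29A nucleoside carriers were above on every array for 4 of 4 genes, SLC22A for 7 of 19, SLC16A for 6 of 14, SLCO for 3 of 11 and SLC28A for 0 of 3. On single arrays, 36, 34, 38, 21, 31 and 38 carriers were above background in the control and at 1, 3, 6, 12 and 24 h. That is 70.6%, 66.7%, 74.5%, 41.2%, 60.8% and 74.5% of them, against 77.7%, 78.0%, 80.4%, 62.2%, 74.1% and 79.3% of all genes. Fewest carriers were read at 6 h, the dimmest array, and their share lay under that of all genes on each of the 6 arrays.

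**Figure D1:**
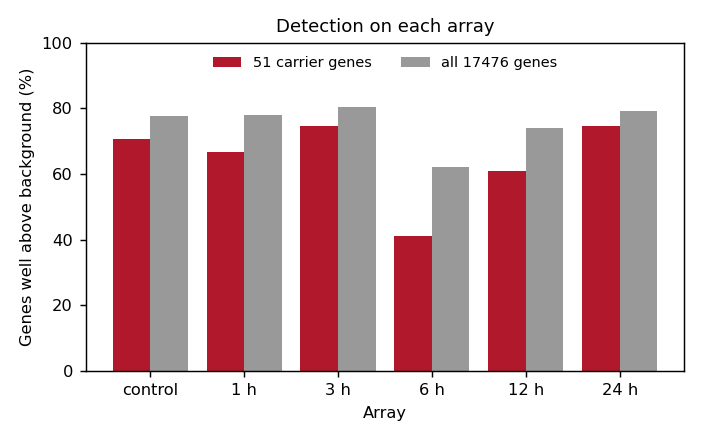
Percent of genes well above background on each array, for the 51 carrier genes (red) and all 17476 named genes (grey); the horizontal axis gives the array. The carrier bar is the lower of each pair, and both are lowest at 6 h, at 41.2% and 62.2%.

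Few carriers stood 2-fold or more from the control at any time. At 1 h no carrier of 33 measured did so, where 2.90% of all measured genes did. At 3 h it was 1 of 34, SLC22A15, which was lower, against 6.23% of all genes either way, 3.27% for higher and 2.96% for lower signals. At 6 h it was 4 of 19, all higher (SLC22A7, SLC22A17, SLC22A18 and SLC22A12), a share of 21.1% against 32.9% of all genes either way and 22.9% of all genes for higher signals. At 12 h it was 2 of 29, SLC22A17 and SLC16A11, both higher, a share of 6.90% against 20.9% either way and 13.0% for higher signals. At 24 h it was 1 of 33, SLC22A10, which was lower, a share of 3.03% against 16.6% either way, 7.29% for higher and 9.28% for lower signals. The directions at 6 h were shaped by the filter on dim probes. The control levels of SLC22A17 and SLC22A12, -4.05 and -3.66, lay under any 6 h signal well above background. Both genes could thus be measured at 6 h only if higher. SLC22A15, at least 4.49-fold lower at 6 h, was not among the 19. With this processing the carriers' shares lay under those of all genes at each of the 5 times. The order turned round with normexp, another background correction, which gave 11 of 19 carriers at 6 h (57.9%) against 37.45% of all genes, and 14 of 29 at 12 h (48.3%) against 24.16%. It also turned at 3 h with no filter on dim probes, where 14.0% of carriers stood against 10.11% of all genes.

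A gene counts as measured when its brightest probe was well above background and unsaturated on both arrays. The error of a difference is the SD between the probes of genes that have more than one, per probe: 0.37 after 1 h, 0.47 after 3 h, 0.79 after 6 h and 0.70 after both 12 and 24 h. Such probes share their arrays, and this SD therefore leaves out how cultures or hybridisations vary. Differences within this SD made up 23 of 33 carriers at 1 h, 25 of 34 at 3 h, 14 of 19 at 6 h, 23 of 29 at 12 h and 28 of 33 at 24 h. In percent these are 69.7, 73.5, 73.7, 79.3 and 84.8, against 65.5, 68.5, 56.5, 61.6 and 69.1 for all genes.

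The median log2 difference of the carriers was 0.05, 0.05, 0.07, -0.01 and 0.00 at the 5 times in order, and that of all measured genes was -0.06, -0.03, 0.34, 0.23 and 0.02. Relative to the all-gene median at 6 h, 2 carriers were at least 2-fold higher, SLC22A7 at 1.10 and SLC22A17 at 1.08, and 2 were lower, SLC16A5 at -1.13 and SLCO4C1 at -1.20, in place of 4 higher and 0 lower. Under that centring 12.6% of all genes were higher and 16.0% lower, so 2 of 19 either way is no more than the share of all genes. At 12 h the same centring gave 2 higher, SLC22A17 at 2.23 and SLC16A11 at 1.55, and 1 lower, SLC16A1 at -1.07, where 6.91% of all genes were higher and 11.6% lower. At 3 h it added SLC16A9 as higher at 1.01, where 3.70% of all genes were higher. The normexp correction split the carriers into 7 higher and 4 lower at 6 h, and 14 higher and 0 lower at 12 h. Under it 37.45% and 24.16% of all genes were called either way. Their split by direction is not given here, so the carriers' directions have no share of all genes beside them.

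**Figure D2:**
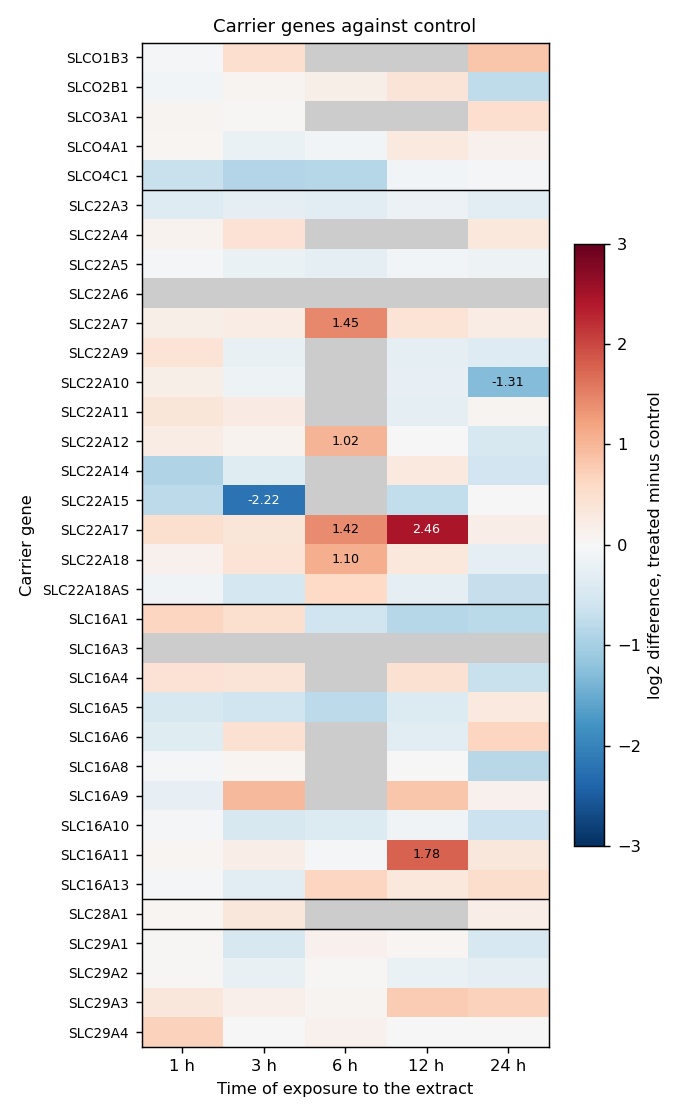
Log2 difference of treated minus control (colour scale) for 34 of the 35 carrier genes read above background on 3 or more arrays, by time of exposure; lines separate the families. Numbers are printed where the difference reached 2-fold, grey marks a gene not well above background on both arrays or saturated, and 8 cells carry a number, from -2.22 for SLC22A15 at 3 h to 2.46 for SLC22A17 at 12 h.

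Among the OATPs, SLCO4A1, a carrier of thyroid hormones and other organic anions, was well above background on every array. Its levels were 2.73 in the control and 2.78, 2.53, 2.64, 3.03 and 2.86 at 1, 3, 6, 12 and 24 h. They spanned 0.50, and each difference from control lay within the error of a single probe. SLCO2B1, which takes up steroid sulfates and many drugs in liver and gut, had levels of 0.20 in the control and 0.13, 0.29, 0.39, 0.58 and -0.56 at the 5 times. It was lowest at 24 h, with a difference of -0.76 against an error of 0.70. SLCO4C1, the OATP of the kidney's basolateral membrane, stood at -0.81 in the control and at -1.48, -1.70, -1.67, -0.90 and -0.84. The 1, 3 and 6 h arrays lay 0.67, 0.89 and 0.86 below the control (fold values of 1.59, 1.85 and 1.82), each beyond the error of its time, and the 12 and 24 h arrays were within 0.09 of it.

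The other SLCO genes were near background. SLCO1B3, one of the main hepatocyte OATPs, had levels of -4.98, -5.05, -4.48 and -4.16 in the control and at 1, 3 and 24 h, and it was not well above background at 6 and 12 h. The difference at 24 h was 0.82 against an error of 0.70. SLCO3A1, a broadly expressed OATP, stood at -5.22, -5.13, -5.19 and -4.72 on the same 4 arrays and was likewise not above background at 6 and 12 h. SLCO1B1, the other main hepatocyte OATP, was not well above background on any array, nor were SLCO1A2, SLCO1C1 and SLCO6A1. SLCO2A1, the prostaglandin transporter, was above background at 3 h alone, at least 1.08-fold higher than the limit set for the control. That limit is the probe's own signal or, where higher, the lowest signal of any probe well above background on that array. SLCO5A1, a member without a settled substrate, was above background at 12 and 24 h, at least 2.66-fold and 1.47-fold higher than in the control.

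Among the organic cation transporters, SLC22A3 (OCT3), a carrier of monoamines and of metformin, had levels of 1.62 in the control and 1.24, 1.31, 1.29, 1.45 and 1.30. Its span was 0.38, all 5 treated arrays lay under the control, and each did so within the error except 1 h, where the difference was -0.38 against 0.37. The dimmer SLC22A3 probe varied more, with differences of -0.39, -0.22, -0.71 and -0.12 at 1, 3, 12 and 24 h. At 6 h it was at least 1.98-fold lower than in the control. SLC22A2 (OCT2), the kidney form, was above background in the control alone, at least 2.06-fold above the limit at 3 h and 2.24-fold above it at 24 h.

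The carnitine transporter SLC22A5 (OCTN2), whose loss causes systemic carnitine deficiency, varied least of the carriers read on all arrays. It had levels of -0.01 in the control and -0.07, -0.21, -0.30, -0.09 and -0.17, a range of 0.28. Of 10380 genes above background and unsaturated on all 6 arrays, 0.482% had a smaller range. SLC22A4 (OCTN1), the ergothioneine transporter, stood at -5.10, -5.00, -4.67 and -4.79 in the control and at 1, 3 and 24 h and was not above background at 6 and 12 h. SLC22A16, a carnitine transporter of the testis, was above background in the control and at 3 h.

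SLC22A15, a carrier of zwitterions such as ergothioneine and carnitine derivatives, had the lowest signal relative to control of any carrier's brightest probe. Its levels were -1.17 in the control and -1.96, -3.38, -1.90 and -1.16 at 1, 3, 12 and 24 h, and its probe was not well above background at 6 h. The 1 h array was 0.79 below the control, and the 3 h array 2.22 below it, a 4.65-fold difference against an error of 0.47. At 6 h the signal was at least 4.49-fold lower than in the control. The 12 h array stood at -0.73 against an error of 0.70, and the 24 h array differed from the control by 0.00. The low arrays were thus those of 3 and 6 h, with 1 and 12 h between them and the control. Under 5 alternatives of scaling, background or probe choice the 3 h difference lay between -2.25 and -1.93. The gene has 1 probe, so the alternative that averages all probes could not change the value.

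SLC22A17, which encodes the receptor for the iron-binding protein lipocalin-2, had the largest measured difference above the control. From -4.05 in the control its level went to -3.56, -3.68, -2.62, -1.59 and -3.85 at the 5 times, a processed signal of 22.7 units at 6 h and 125 units at 12 h. The 6 h difference was 1.42 ± 0.79 (SD of a single probe), and the 12 h difference was 2.46 ± 0.70, a 5.48-fold higher signal. At 24 h it stood 0.20 from the control, within the error. The 6 and 12 h arrays were the 2 high ones, and they were also the 2 dimmest arrays; the part of array brightness in this difference was not tested. The 12 h difference was 2.50, 1.97 and 2.04 with quantile normalization, normexp correction and the authors' deposited table. Its range over the 6 arrays, 2.46, was larger than that of 95.5% of the genes read on all arrays.

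The probe that gave these values is a 60-base oligonucleotide on the array, shown because a single probe carries the SLC22A17 result.
SLC22A17 probe: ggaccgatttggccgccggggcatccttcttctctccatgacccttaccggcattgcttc
It is followed by the RefSeq promoter windows on GRCh38.p14, each from 250 bases before to 50 bases after a transcript start, of the 3 carriers with the largest differences among those measured on both arrays by their brightest probe. Capitals mark GCGTG, the core of the response element of the aryl hydrocarbon receptor, and ACGTG, the core bound by hypoxia-inducible factor and by E-box factors, on either strand.
SLC22A17 (chr14:23352838-23353137, minus strand): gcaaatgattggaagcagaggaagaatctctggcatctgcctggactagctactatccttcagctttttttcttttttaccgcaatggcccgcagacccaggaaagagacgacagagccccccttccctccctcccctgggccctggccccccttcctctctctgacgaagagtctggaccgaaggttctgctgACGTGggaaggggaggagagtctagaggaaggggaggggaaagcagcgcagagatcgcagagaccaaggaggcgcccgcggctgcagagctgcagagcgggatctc
SLC22A15 (chr1:115976263-115976562, plus strand): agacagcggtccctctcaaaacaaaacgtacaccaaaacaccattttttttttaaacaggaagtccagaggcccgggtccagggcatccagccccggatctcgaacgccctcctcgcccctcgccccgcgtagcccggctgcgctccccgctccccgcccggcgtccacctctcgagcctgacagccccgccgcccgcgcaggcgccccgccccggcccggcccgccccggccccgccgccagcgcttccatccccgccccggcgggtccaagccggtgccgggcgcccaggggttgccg
SLC16A11 (chr17:7044043-7044342, minus strand): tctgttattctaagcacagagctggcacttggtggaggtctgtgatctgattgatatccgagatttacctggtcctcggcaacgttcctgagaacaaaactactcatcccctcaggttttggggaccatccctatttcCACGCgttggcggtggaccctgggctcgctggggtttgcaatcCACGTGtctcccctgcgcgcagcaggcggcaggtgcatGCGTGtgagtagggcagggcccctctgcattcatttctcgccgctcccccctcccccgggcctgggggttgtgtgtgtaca
The SLC22A17 window, the upstream-most of its starts, held 1 ACGTG and 0 GCGTG. The window of the gene's other start, not printed, held neither, and the SLC22A15 window held neither. The SLC16A11 window held 2 GCGTG and 2 ACGTG, the latter being both strands of a single CACGTG. Over all 35116 windows, 36.5% held GCGTG and 21.4% held ACGTG. Of the 45 windows of the 32 carriers with an entry, 13 held GCGTG, which is 28.9%, and 10 held ACGTG, which is 22.2%. A match of letters describes the sequence and no binding was measured.

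Among the organic anion transporters, SLC22A7 (OAT2), a liver carrier of prostaglandins and nucleobases, had levels of -3.09 in the control and -2.92, -2.86, -1.64, -2.67 and -2.86. The 6 h array was the high one, with a difference of 1.45 ± 0.79 (SD of a single probe), and the other 4 were within 0.42 of the control. A dimmer SLC22A7 probe gave 0.55, 0.67, 0.66 and 0.81 at 1, 3, 12 and 24 h and was not well above background at 6 h, so the 6 h difference has no check by another probe. SLC22A10, a member of the organic anion group found mainly in liver, stood at -3.35 in the control and at -3.17, -3.49, -3.60 and -4.66 at 1, 3, 12 and 24 h. It was not well above background at 6 h. The 24 h array was the low one, at -1.31 ± 0.70, a 2.48-fold lower signal, and with normexp correction it was -0.92, under 2-fold.

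SLC22A9 (OAT7), another liver carrier, lies 6640 bases from SLC22A10 in RefSeq. Its levels were -3.94 in the control and -3.54, -4.17, -4.20 and -4.33 at 1, 3, 12 and 24 h, a difference of -0.39 at 24 h, within the error. SLC22A11 (OAT4), an organic anion carrier of placenta and kidney, had levels of -3.41, -3.06, -3.15, -3.69 and -3.32 on those 5 arrays. Its 2 probes disagreed: at 1 h the brighter gave 0.35 and the other -1.50, and the other was at least 5.17-fold, 2.26-fold and 6.48-fold lower than in the control at 3, 12 and 24 h. This second probe carries an accession of its own, and which transcript it reads was not tested.

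SLC22A12 (URAT1), the urate exchanger targeted by uricosuric drugs, had levels of -3.66 in the control and -3.42, -3.56, -2.64, -3.66 and -4.14. Its 6 h difference was 1.02 ± 0.79 (SD of a single probe), just over the 2-fold mark, and 0.67 relative to the median of all genes. SLC22A6 (OAT1), the kidney's organic anion exchanger, was not well above background in the control or at 1 and 12 h. Its processed signal was 3.59 units in the control and 9.56, 40.9, 72.9, 3.92 and 24.2 units at the 5 times. The 6 h array was the high one on both scales, at a level of -0.94, at least 30.5-fold above the limit set for the control, and the bound at 3 h was 1.40-fold. The probe is a 60-base sequence that spans 197 bases of the genome, and it is printed because only this oligonucleotide carries the value.
SLC22A6 probe: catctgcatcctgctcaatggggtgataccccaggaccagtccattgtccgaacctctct
SLC22A8 (OAT3), whose gene lies 7856 bases from SLC22A6, was above background at 24 h alone, at least 2.26-fold higher than the limit for the control, and it was not well above background at 6 h.

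SLC22A18, an imprinted gene that RefSeq now names SLC67A1, had levels of 2.05 in the control and 2.18, 2.45, 3.15, 2.37 and 1.75. The 6 h difference was 1.10 ± 0.79 (SD of a single probe), 0.70 with quantile normalization and -0.28 with normexp correction. Its direction thus differed between settings, and the cause was not tested. The antisense gene SLC22A18AS overlaps it, with levels of 0.29 in the control and 0.18, -0.24, 0.88, 0.00 and -0.41. Its differences at 6 and 24 h were 0.59 and -0.69, against errors of 0.79 and 0.70. SLC22A14, a carrier of sperm, stood at -4.12 in the control and at -5.02, -4.49, -3.81 and -4.69 at 1, 3, 12 and 24 h. Its 1 h difference of -0.90 was the largest of any carrier measured at that time. SLC22A13, whose gene lies 74 bases from it, was not well above background on any array.

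Among the monocarboxylate transporters, SLC16A1 (MCT1), the proton-linked carrier of lactate, pyruvate and ketone bodies, was higher at early and lower at late times. Its levels were 0.84 in the control and 1.49, 1.31, 0.25, -0.01 and 0.04. The differences were 0.65 and 0.47 at 1 and 3 h, and -0.59, -0.85 and -0.80 at 6, 12 and 24 h. Those at 1, 12 and 24 h were beyond the error of a single probe, that at 3 h was level with it, and none reached 2-fold. BSG, basigin, the chaperone that brings MCT1 and MCT4 to the membrane, had differences of 0.41, -0.40, -0.43, -0.53 and -0.70 from a control level of 4.07. The BSG differences from 3 h on, like that of SLC16A1 at 6 h, lay within the error of a single probe or level with it.

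**Figure D3:**
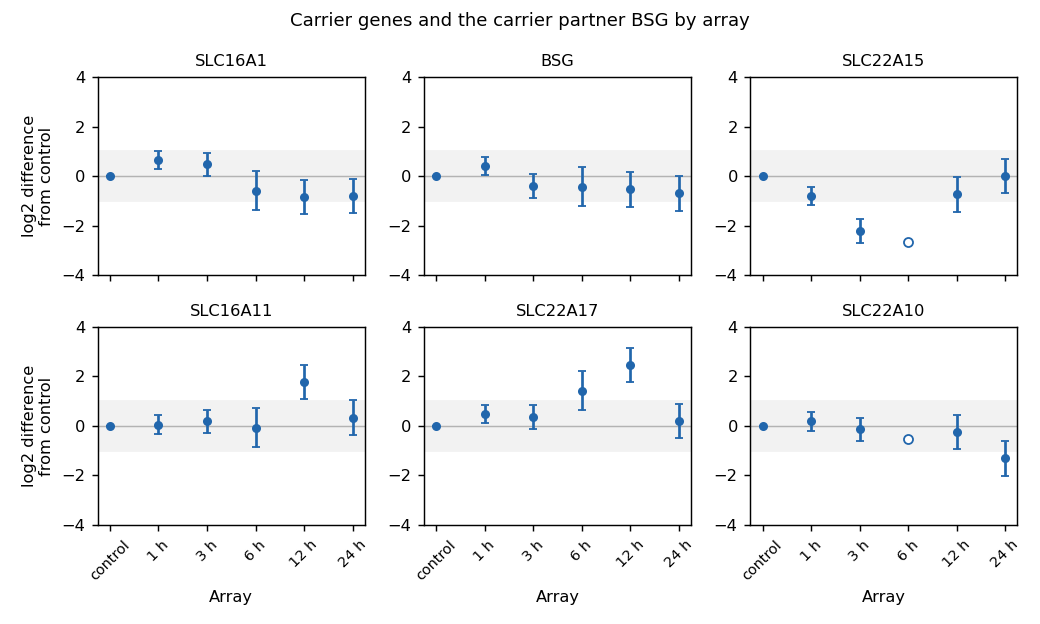
Log2 difference from the control array for 5 carriers and the carrier partner BSG on each array; bars are the SD per probe between probes of a gene, open circles are arrays on which the probe was not well above background, and the grey band is within 2-fold. SLC22A15 lies at -2.22 at 3 h, SLC22A17 at 2.46 and SLC16A11 at 1.78 at 12 h, and SLC16A1 and BSG stay within the band.

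SLC16A3 (MCT4), the lactate exporter of glycolytic cells, was saturated on 5 arrays by its brightest probe, with 52500 units at 6 h and 72800 to 80900 units on the others. Differences of that probe show the scaling and not the RNA. A second probe under the same gene name, with an accession that is not RefSeq's, lies 12234 bases away in a gene of 22153 bases. Its levels were -1.08 in the control and -1.59, -2.74 and -5.08 at 1, 3 and 24 h, differences of -0.51, -1.66 and -4.01. It was not well above background at 6 and 12 h, at least 4.78-fold and 15.7-fold lower than in the control. The second probe was lower at each time, but which transcript it reads was not tested, so no statement on MCT4 rests on it.

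SLC16A11, a monocarboxylate carrier of the hepatocyte tied by genetics to type 2 diabetes, stood at -3.14 in the control and at -3.08, -2.95, -3.20, -1.36 and -2.80. The 12 h array was the high one, at 1.78 ± 0.70 (SD of a single probe), a 3.43-fold higher signal, and the other 4 were within 0.34 of the control. It kept a value between 1.54 and 1.82 under the 5 alternatives. With 1 probe for SLC16A11, the mean of all probes could not change the value. SLC16A13, a lactate carrier whose gene lies 1503 bases from SLC16A11, had levels of -3.15 in the control and -3.21, -3.48, -2.50, -2.83 and -2.63. Its 12 h difference was 0.32, within the error, and so was each of its others.

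SLC16A5 (MCT6), which carries some drugs such as bumetanide, had levels of 1.32 in the control and 0.85, 0.72, 0.53, 0.91 and 1.60. It was lower on the first 4 treated arrays, by 0.47, 0.60, 0.79 and 0.41, and 0.28 higher at 24 h; those at 1 and 3 h were beyond the error. SLC16A10, the aromatic amino acid transporter TAT1, stood at -2.38 in the control and at -2.44, -2.86, -2.80, -2.48 and -3.02, with a span of 0.64. SLC16A6, a ketone body exporter of the liver, had levels of -3.62, -3.98, -3.17, -3.95 and -2.97 in the control and at 1, 3, 12 and 24 h. Its differences lay within the error at each of those times.

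SLC16A9 (MCT9), a carnitine carrier linked to blood carnitine and urate levels, stood at -5.42 in the control and at -5.67, -4.44, -4.59 and -5.28 at 1, 3, 12 and 24 h. The 3 and 12 h arrays were 0.98 and 0.83 above the control, beyond their errors, and the others within them. SLC16A8 (MCT3), the lactate carrier of the retinal pigment epithelium, had levels of -3.08, -3.14, -3.01, -3.09 and -3.90 on these 5 arrays. SLC16A4 (MCT5) stood at -5.26, -4.82, -4.87, -4.79 and -5.93. Each of these 3 genes was not well above background at 6 h. SLC16A7 (MCT2), a high-affinity pyruvate carrier, was above background at 3 h alone and SLC16A14 at 24 h alone, at least 1.82-fold and 1.10-fold above the control's limit. The creatine carrier SLC16A12 was not well above background on any array.

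The 4 equilibrative nucleoside transporters spanned between 0.33 and 0.77 over the arrays. SLC29A1 (ENT1), the main carrier of adenosine and nucleoside drugs, had levels of 2.99 in the control and 3.01, 2.50, 3.12, 3.04 and 2.50. The 3 and 24 h arrays, which were also the brightest of the 6, lay lowest, both 0.49 below the control. SLC29A2 (ENT2), which also carries nucleobases, stood at -2.00 in the control and at -1.96, -2.22, -1.98, -2.21 and -2.29, a range of 0.33. Its dimmer probe gave 0.84 at 12 h where the brighter gave -0.20, so the probes differed by over 1 at that time.

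SLC29A3 (ENT3), the lysosomal form, had levels of -0.81 in the control and -0.48, -0.66, -0.74, -0.05 and -0.13. Its 12 h difference was 0.77 against an error of 0.70. The 3 probes of SLC29A3 disagreed at that time. A dimmer probe was at least 1.21-fold lower than in the control, and another was at least 2.64-fold higher. SLC29A4 (PMAT), a carrier of monoamines, stood at -0.67 in the control and at 0.01, -0.65, -0.55, -0.68 and -0.66. Only its 1 h array differed beyond the error, by 0.68. Of the concentrative carriers, SLC28A1 had levels of -5.03, -4.97, -4.70 and -4.84 in the control and at 1, 3 and 24 h, and SLC28A2 and SLC28A3 were not well above background on any array.

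Over the 19 carriers read unsaturated on all 6 arrays, the range of levels had a median of 0.99, against 1.16 for 10380 genes. A range under 1 was found in 10 of the 19, against 37.6% of those genes. By their brightest probes, SLC22A5, SLC29A2, SLC22A3 and SLCO4A1 had the smallest, from 0.28 to 0.50, and SLC22A17 and SLC16A11 the largest, 2.46 and 1.84.

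**Figure D4:**
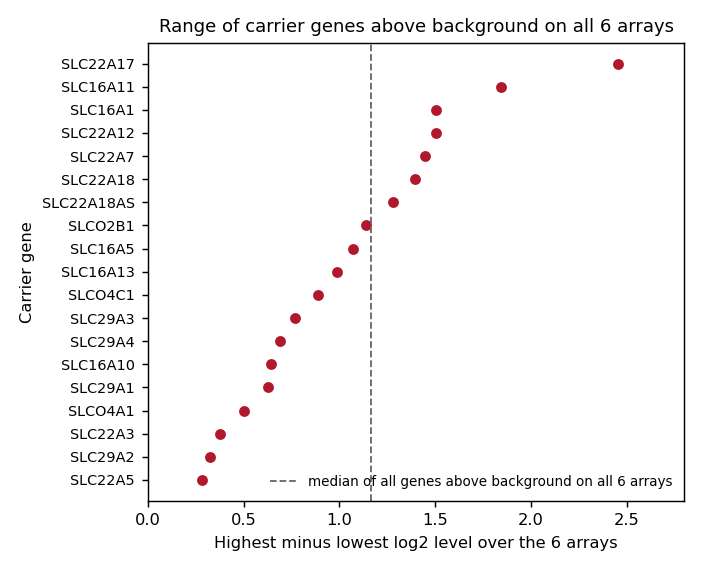
Range of levels, highest minus lowest log2 level over the 6 arrays (horizontal axis), for the 19 carriers above background and unsaturated on all arrays; the dashed line is the median of all such genes, 1.16. The points run from 0.28 for SLC22A5 to 2.46 for SLC22A17.

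A straight line over log2 of hours plus 1, with the control placed at 0 h by assumption, was fitted with limma to each of 13604 genes, 35 of them carriers. Its residual is the scatter of single arrays about the line with 4 residual degrees of freedom, and not a spread between replicates. No carrier had an adjusted p under 0.05 by limma with Benjamini-Hochberg adjustment (smallest 0.46), as for 0.00% of all genes, and 2 had an unadjusted p under 0.05, both with falling lines. SLC16A1 had a slope of -0.29 ± 0.12 (SE) per unit, and an adjusted p = 0.47 by limma. For SLC22A10 it was -0.25 ± 0.099 (SE), with adjusted p = 0.46 by limma. Unadjusted falling lines with a p under 0.05 made up 5.93% of all genes and rising ones 3.94%. The unadjusted p of SLC16A1 was no longer under 0.05 without the 1, 12 or 24 h array, nor that of SLC22A10 without the 1, 3 or 24 h array, the last of which brought its slope to -0.13. Lines rose for 16 carriers and fell for 19, where the lines of 8168 of the 13604 genes rose, 60.0%, and the median slope was -0.02 against 0.04. With line and quadratic terms tested together by limma, which follows a rise and return, SLC22A15 was the single carrier with an unadjusted p under 0.05. Its adjusted p was 0.768 by limma. The fit used its 6 h value, which was not well above background. The share of all genes with such an unadjusted p is not given here.

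Scaffolds and regulators of the carriers were read from lists chosen with earlier results of these data known. Of the partners and scaffolds, 4 of 5 genes were on the array and none was 2-fold from control at any time. PDZK1, which anchors OATPs and OCTNs at the membrane, had differences of -0.33, -0.42, -0.43, -0.42 and -0.52. Of 11 regulators, at 6 h 2 were higher and 5 lower, and at 12 h 2 were higher and 2 lower, where 22.9% and 10.0% of all genes at 6 h and 13.0% and 7.85% at 12 h were so. HNF4A, a liver factor that acts on the OAT2 gene, stood 0.90, 0.82, 0.43, 0.67 and 0.62 above the control. Its differences at 1 and 3 h were beyond the error of a single probe, and those at 6, 12 and 24 h within it. NR1I3, the constitutive androstane receptor, was higher by 1.64 and 1.33 at 6 and 12 h. The control levels of HNF4A and NR1I3, -3.53 and -3.91, lay under any 6 h signal well above background. Both could thus be measured at 6 h only if higher, and NR1I3 is among the 2 regulators counted higher then. NR1I2, the pregnane X receptor, was at -1.03, NFE2L2 at -1.12, AHR at -1.92 and MYC at -2.88 at 6 h.

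Efflux pumps and bile acid carriers, which work in series with uptake, were 1 higher and 2 lower of 10 measured at 24 h, where 7.29% and 9.28% of all genes were so. ABCB1, the drug pump P-glycoprotein, was higher by 2.36 at that time. SLC51A and SLC51B, the subunits of the basolateral bile acid exporter, were both lower at 12 and 24 h, SLC51A by 1.38 and 1.58 and SLC51B by 1.25 and 1.08. SLC10A1, the hepatocyte's sodium-dependent bile salt uptake carrier, and ABCB11, the bile salt pump, were not well above background on any array. Of the genes that handle MCT substrates, PCK1, which starts gluconeogenesis from lactate-derived oxaloacetate, was lower by 2.07, 2.45 and 1.61 at 3, 6 and 12 h. PDHA1, of the pyruvate dehydrogenase complex, was higher by 1.79 and 1.26 at 6 and 12 h. Around the nucleoside carriers, 12 of 12 genes were read on all arrays, 4 were higher and 2 lower at 6 h (22.9% and 10.0% of all genes), among them PNP at 2.02 and DCK, which activates deoxycytidine analogues, at -1.69. Of the carnitine genes, CPT2 was lower by 1.57 and 1.19 at 6 and 12 h and SLC25A20, the mitochondrial carnitine carrier, by 1.03 at 24 h. Thyroid hormone genes counted 2 higher of 3 measured at 6 h, where 22.9% of all genes were higher. By limma's trend test, 0 genes of these 7 lists had an adjusted p under 0.05, and an unadjusted p under 0.05 was found in 4 of 10 efflux, 2 of 6 carnitine, 1 of 12 nucleoside and 1 of 6 thyroid genes tested, against 9.87% of all 13604 genes.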

How the data were processed

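RNA of HepG2 cells was read on 6 one-colour Agilent arrays, 1 per group, with groups taken from the sample titles. An RNeasy kit gave the total RNA, which a linear amplification kit of Agilent's labelled, per the labels' protocols. Per the labels the dye was Cy5, whereas the columns are of the green channel per the file headers. The deposited scanner files hold linear intensity per spot, background-corrected by the scanner software and not scaled between arrays, with flags for background, saturation and outliers per the file headers. The authors' deposited value table, also linear intensity, matched the median signal minus local background to 0.51 units or less in at least 99.3% of probes. No probe coordinates are printed: their build, like the version of the software, is not given in the sources used here.

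From the deposited intensity, log2 values were computed after averaging the spots of a probe and dividing by an array's own 75th percentile. On each array 1639 control spots were left out, as were 114 probes with outlier flags, none of them a carrier probe. Genes were named by the files' GeneName column, updated through RefSeq symbols for lists and promoters, and a gene is represented by the probe brightest on average. Every carrier well above background on at least 3 arrays is named with its values. Those above on 1 or 2 arrays are named with the arrays, and the others by name. A few genes that this rule or the lists would name are counted but not reported here. The carriers and the lists were chosen with earlier results of these data known. The trend was fitted with limma 3.58.1 in R 4.3.3, checked on simulated data, and other steps used Python 3.11.15 and pandas 2.3.3. Alternatives were quantile normalization, normexp background correction with an offset of 50, the authors' table, the mean of all probes, no filter on dim probes, a fold of 1.5, centring on the all-gene median, hours as the time scale, a quadratic term and arrays left out.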

Additional observations from a re-analysis of the deposited data

How the results depend on the processing

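The number of carriers at least 2-fold from control was 0, 1, 4, 2 and 1 at 1, 3, 6, 12 and 24 h. A fold of 1.5 gave 5, 4, 9, 6 and 10, where 14.65%, 22.09%, 56.82%, 47.23% and 38.63% of all genes were called. No filter on dim probes gave 7, 20, 10 and 7 of 50 from 3 h on, against 10.11%, 45.61%, 22.52% and 18.09% of all genes. Normexp correction gave 11, 14 and 0 at 6, 12 and 24 h, against 37.45%, 24.16% and 11.15%. Over 7 alternatives at 5 times the carriers' share was under that of all genes in 30 of 35 cases, and over it in 5: normexp at 6 and 12 h, no filter at 3 h, a fold of 1.5 at 1 h and the mean of all probes at 3 h. The mean of all probes gave 2 at 3 h and 2 at 24 h, centring on the all-gene median gave 2 at 3 h, and quantile normalization and the authors' table each gave 2 at 24 h. Directions split as 1 higher and 1 lower at 24 h with quantile normalization, and as 2 higher and 1 lower at 12 h with the mean of all probes. The count of 2 carriers with an unadjusted trend p under 0.05 by limma became 0 with normexp, 1 with the authors' table and 4 with the mean of all probes. It was 5 without the 6 and 12 h arrays and 1 with line and quadratic terms tested together. With each array left out in turn the count lay between 0 and 3, lowest without the 1 h array and at 1 when the 3 or 12 h array was dropped. The shares of all genes under these alternatives are not given here. The count with an adjusted p under 0.05 was 0 under each alternative run, and the smallest adjusted p was 0.0594 without the 6 and 12 h arrays. Of 40 alternative values of the 8 differences at or beyond 2-fold, 37 kept their direction and moved by less than the error. Some of the 37 were fixed in advance. Apart from SLC22A7 and SLC22A18 these genes have 1 probe each, so the mean of all probes could not change their values. Centring shifted every gene of a comparison by the same amount, 0.34 at 6 h and less at the other times. That is under the error of each time, so the values with centring were fixed in advance too. SLC22A12 and SLC22A17 at 6 h were 2.43 and 2.50 with normexp, and SLC22A18 at 6 h reversed to -0.28. The SLC22A10 slope reversed to 0.060 with normexp. The cause was not tested. No paired analysis was possible because each group held 1 array and the labels carry no replicate numbers. Signal over background limits the 6 h array most, where 21 of 51 carriers could be read, and nothing in the labels says whether the arrays came from separate cultures.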

Other observations

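Some carriers of these families are listed in the scanner files under older names and so were not among the 51. SLC47A1, the MATE extruder of hepatocytes and kidney, was read as FLJ10847 by 2 probes, both well above background on all 6 arrays. One gave log2 differences of -0.42, -0.34, 0.41, 0.07 and -0.76 at 1, 3, 6, 12 and 24 h, and the other 0.02, -0.03, 0.52, 0.51 and 0.04. Neither probe reached 2-fold at any time. SLC22A23, an orphan member of the organic ion group, was read as C6orf85 by 3 probes on all 6 arrays. SLC47A2, SLC22A24 and SLCO1B3-SLCO1B7 were not well above background on any array.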
